A study of Mus musculus with 2 samples.

Results

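Transcripts of 10 genes of the bone morphogenetic protein (BMP) pathway were followed in the embryonic mouse ureter: the ligand genes Bmp2, Bmp4, Bmp5, Bmp6 and Bmp7, the response genes Id1, Id2, Id3 and Id4, and the response gene Smad6. The members were chosen by name, and every non-control probe carrying one of these names was taken, 11 probes of the 39429 on the array. All 10 genes had a probe that passed the filter on dim spots and were among the 21097 genes tested. The samples were ureters of male NMRI embryos at stage E13.5, compared on 2 two-colour arrays. Tbx2-GOF embryos, with gained activity of TBX2, a T-box transcriptional repressor, were Tbx18(cre/+);Hprt(Tbx2/Y), and control embryos were Tbx18(+/+);Hprt(Tbx2/Y). Both genotypes therefore held the Tbx2 allele at Hprt, and cre, placed in the Tbx18 gene, was present only in Tbx2-GOF. An effect of the altered Tbx18 allele and an effect of TBX2 cannot be told apart, and cre driven from Tbx18 is active where Tbx18 is or was expressed, chiefly in the ureteric mesenchyme. Each array held 1 Tbx2-GOF and 1 control extract, with Tbx2-GOF in the red dye on array 1 and in the green dye on array 2, so n = 2 throughout. No label says whether embryos were pooled or shared between arrays, so each p-value covers only the array-to-array spread, which could be technical.

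BMP ligands are secreted dimers that bring type I and type II serine/threonine kinase receptors together. The activated type I receptor phosphorylates SMAD1, SMAD5 and SMAD9, which enter the nucleus with SMAD4 and switch on target genes. Id genes are among the most direct of these targets: ID proteins lack a DNA-binding region and hold E proteins away from DNA. Smad6 is also induced by the pathway and encodes an inhibitory SMAD that dampens it. In the ureter BMP4 comes from the mesenchyme around the epithelium and is needed for smooth muscle formation.

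Sequences are shown for the probes on which reading these genes turned. Bmp4, the ligand most closely tied to the ureter, had 2 probes, of which 1 gave no measurement. The probe that was measured lay at chr14:47003391-47003450 (mm9, minus strand), and the other 133 bases farther downstream at chr14:47003198-47003257. The probe of Bmp7, at chr2:172695203-172695262 on the minus strand, is shown because Bmp7 came nearest to the threshold. The last 30 bases of each of these probes follow, 5′ to 3′, with the hexamer AATAAA, the usual polyadenylation signal, in capitals.
Bmp4, measured probe: tccctatagctggacttttatcttaaaaaa
Bmp4, unmeasured probe: gaaAATAAAatgagtcattattttaaagat
Bmp7: agaagccactgtaatgatatgtcacaataa
The whole probe of Id3 is given because it is the only member probe whose genome span exceeds its length: 60 bases covering 175 bases at chr4:135700075-135700249 on the plus strand, the span of a probe that bridges an intron.
Id3: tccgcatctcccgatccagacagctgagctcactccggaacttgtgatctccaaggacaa

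The unmeasured Bmp4 probe was not well above background in either genotype on either array, with scanned signals of 101 (Tbx2-GOF) and 40.8 (control) on array 1 and 44.6 and 105 on array 2. Its base content was 15% G and C, at or below which lay 0.0609% of all probes, whose median was 41.7%. The measured Bmp4 probe had 38.3%. AATAAA was found in 2 of the 11 member probes, those of Bmp2 and the unmeasured Bmp4 probe, and in 12.6% of all probes. Its complement TTTATT was found in 1 member probe, that of Bmp2, and in 4.03% of all. A match describes letters in a probe and is not a mapped transcript end. The ratios of Bmp4 below come from the measured probe, and each of the other 9 genes had 1 probe, well above background in both genotypes on both arrays and never saturated.

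In Tbx2-GOF ureters none of the 10 genes passed the test. The ligand Bmp7 stood highest at 1.34-fold, Bmp6 stood lowest at 1.17-fold below control, and Bmp4 was at 1.04-fold. Each ID gene and Smad6 pointed up on one array and down on the other, though on array 1 Id2 (0.0064) and Smad6 (0.0092) barely differed from 0. By limma's moderated test with Benjamini-Hochberg adjustment over all genes, 0 members were called at an adjusted p under 0.05, against 0.640% of all genes (135 of 21097). With 2 arrays the spread is poorly estimated, so the share of false calls may exceed 0.05, here and for every call below. At an unadjusted p under 0.05 there was 1 member, Bmp7, and 1970 genes in all (9.34%). No member passed in any of 12 other processing settings, a separate-channel model among them. With processed signals, the series value table and median centring no gene passed, so no member could. The median log2 ratio of the members was -0.023 (0.047 on array 1 and -0.038 on array 2), beside -0.00052 over all genes tested. No member reached 1.5-fold on both arrays in one direction, which 1.37% of all genes did. In a whole-organ extract fewer cells of a type and less RNA per cell cannot be told apart, and this holds for every value below.

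**Figure D1:**
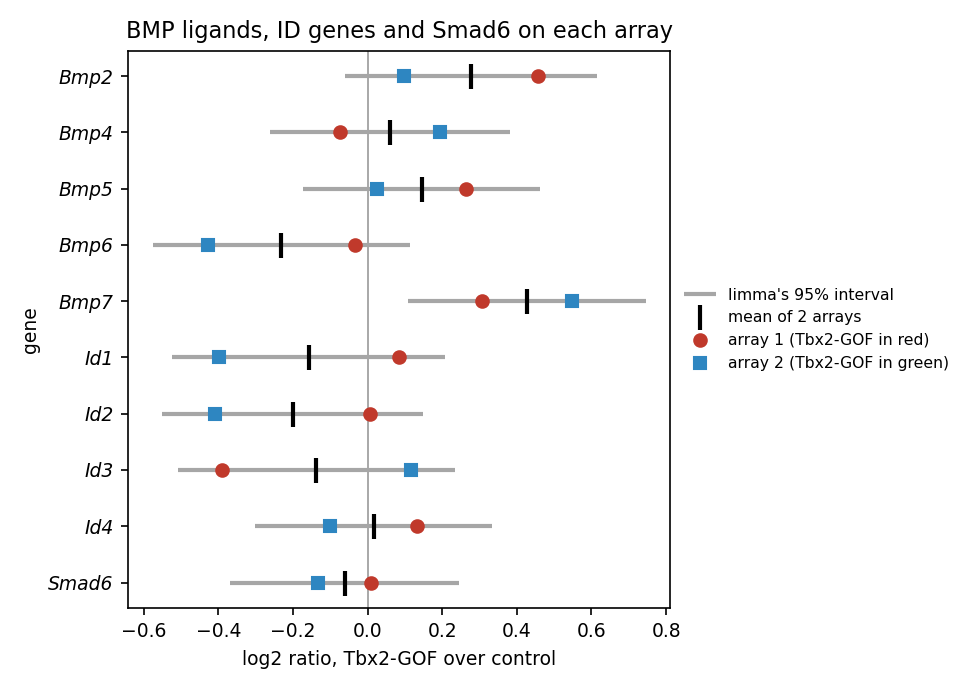
Log2 ratio of Tbx2-GOF over control (x axis) for the 10 genes (y axis), on array 1 (red circles) and array 2 (blue squares), with the mean of the 2 arrays (black tick) and limma's 95% interval (grey line). Bmp7 is the 1 gene whose interval, from 0.11 to 0.75, stays on one side of 0 (unadjusted). The symbols of Id1, Id2, Id3, Id4 and Smad6 lie on both sides of 0, with those of Id2 and Smad6 on array 1 almost at 0.

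Some facts of the arrays bear on these genes. Probes well above background made up 66.7% (Tbx2-GOF) and 70.5% (control) on array 1, and 73.0% (Tbx2-GOF) and 66.7% (control) on array 2. The probe for Tbx2 read 0.035 and 0.56 on the 2 arrays (adjusted p = 0.711); whether it reads the transcript from Hprt was not tested. Markers of the labelled tissue were present: all 10 urothelial and all 7 ureteric mesenchyme markers were well above background in every channel. So were 7 of 8 smooth muscle markers; the other, Myocd, the coactivator that starts smooth muscle differentiation, was not tested because its probe was too dim. Urothelial markers summed to an intensity of 54785 and 60965 in Tbx2-GOF and 55971 and 56588 in control, with 1 of 10 called, downward; their log2 ratios ran from -0.86 for Upk3a to 0.84 for Upk2. Some markers of other tissues passed the test. The marker lists, here and below, were chosen with earlier results of these data known, so their counts are descriptions. Each sum of intensities gives most weight to the brightest markers of its list and need not follow the others. Of all 21097 genes 5508 were higher on both arrays, 5295 were lower on both and 0.640% were called. Of 8 neural and Schwann markers 8 were higher on both arrays, with ratios from 0.71 for Stmn2 to 1.57 for Fabp7, and 2 were called, upward. All 6 skeletal muscle markers were lower on both, from -1.99 for Myh3 to -0.60 for Myod1, with 3 called and sums of 4860 and 13671 against 22707 and 26164. Of 5 erythroid markers 4 were lower on both and 0 were called, with the highest, Hbb-bh1, at 0.047 and sums of 226950 and 227990 against 267240 and 285560. How far these tissues enter the ratios of the members was not tested.

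Among the ligands, 3 of 5 were higher in Tbx2-GOF on both arrays, 1 was lower on both and 1 differed in sign, while 51.2% of all genes kept one sign. The ligand median was 0.14, with 0.26 on array 1 and 0.098 on array 2. Levels below are log2 intensities after loess within arrays and quantile scaling of average intensity between them. The 2 Tbx2-GOF and 2 control levels of a gene are said to be separate where they do not overlap, which was so for 34.5% of all genes and for 3 of the 10 members. The level of a single gene is set only against other levels of the same probe, whereas the summed intensities of marker lists add different probes.

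Bmp7, a ligand of the ureteric epithelium and nephron progenitors that keeps those progenitors alive, had levels of 10.86 and 10.85 in Tbx2-GOF and of 10.55 and 10.30 in control on arrays 1 and 2. Both Tbx2-GOF extracts lay above both control extracts, and they differed from each other by 0.010 whereas the control extracts differed by 0.25. The log2 ratio was 0.31 on array 1 and 0.55 on array 2, a mean of 0.43 ± 0.17 (SD, n = 2). Its unadjusted p by limma was 0.0153, rank 1100 of the 21097 genes, and its adjusted p was 0.293. The 95% interval ran from 1.08-fold to 1.68-fold higher.

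Nephron progenitors make Bmp7, so their markers are set beside it. Of the 6 listed and tested, 4 were higher on both arrays, 0 were lower on both and 2 were called, both upward; ratios ran from 0.036 for Eya1 to 1.85 for Six2. Their summed normalized intensity was 44170 and 41099 in Tbx2-GOF against 33482 and 30850 in control, and all 6 were well above background in every channel. The part of such cells in the level of Bmp7 was not tested.

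Bmp2, a ligand best known from bone and heart formation (probe at chr2:133388260-133388319), was higher on both arrays, at 0.46 and 0.098. Its levels were 10.15 and 10.11 in Tbx2-GOF and 9.69 and 10.01 in control, so the genotypes were separate, by a margin of 0.098 on array 2. The control extracts differed by 0.32, which is more than the mean ratio of 0.28 ± 0.25 (SD, n = 2; limma adjusted p = 0.688). Bmp5, the ligand lost in short-ear mice (chr9:75746444-75746503), was at 0.26 and 0.025. Its levels overlapped, with 10.19 and 10.30 in Tbx2-GOF and 9.92 and 10.28 in control (mean 0.14 ± 0.17, limma adjusted p = 0.953).

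Bmp6, known for iron sensing through hepcidin in the liver (chr13:38591479-38591538), was the 1 ligand lower on both arrays, at -0.035 and -0.43. Levels were 8.90 and 8.71 in Tbx2-GOF and 8.93 and 9.14 in control, separate by a margin on array 1 of 0.035. The mean was -0.23 ± 0.28 (SD, n = 2; limma adjusted p = 0.820). Liver markers were lower too, with summed intensities of 752 and 759 in Tbx2-GOF against 3099 and 3912 in control, 4 of 5 of them called. Afp was the lowest at -2.95, and Apoa1, the highest, was not well above background in Tbx2-GOF on either array, so it has only a bound there. Of these markers 2 were well above background in every channel. The others passed the dim filter only through control, and in Tbx2-GOF they missed that mark on at least 1 array. The sums include them, and all of them except Apoa1 are among the called. Their part in the level of Bmp6 was not tested.

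Bmp4 had levels of 16.57 and 16.47 in Tbx2-GOF and of 16.65 and 16.28 in control. The control extracts enclosed both Tbx2-GOF extracts and differed by 0.37. The log2 ratio was -0.075 on array 1 and 0.19 on array 2, a mean of 0.060 ± 0.19 (SD, n = 2; limma adjusted p = 0.9998). The 95% interval of the Bmp4 ratio ran from 1.20-fold lower to 1.30-fold higher. Smooth muscle markers are set beside Bmp4 because BMP4 is needed for that fate. Whether their signal at E13.5 came from ureteric smooth muscle, or depended on BMP4, was not tested. These markers had 0 of 7 called, 3 higher on both arrays and 2 lower on both. Their median was -0.022, with a range from -0.41 for Actg2 to 0.25 for Tagln. Their summed intensity was 50491 and 75255 in Tbx2-GOF and 46223 and 78119 in control. In this sum, which the brightest markers dominate, the 2 extracts of a genotype stood farther apart than the genotypes did on either array; for single markers such as Des and Smtn this was not so.

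**Figure D2:**
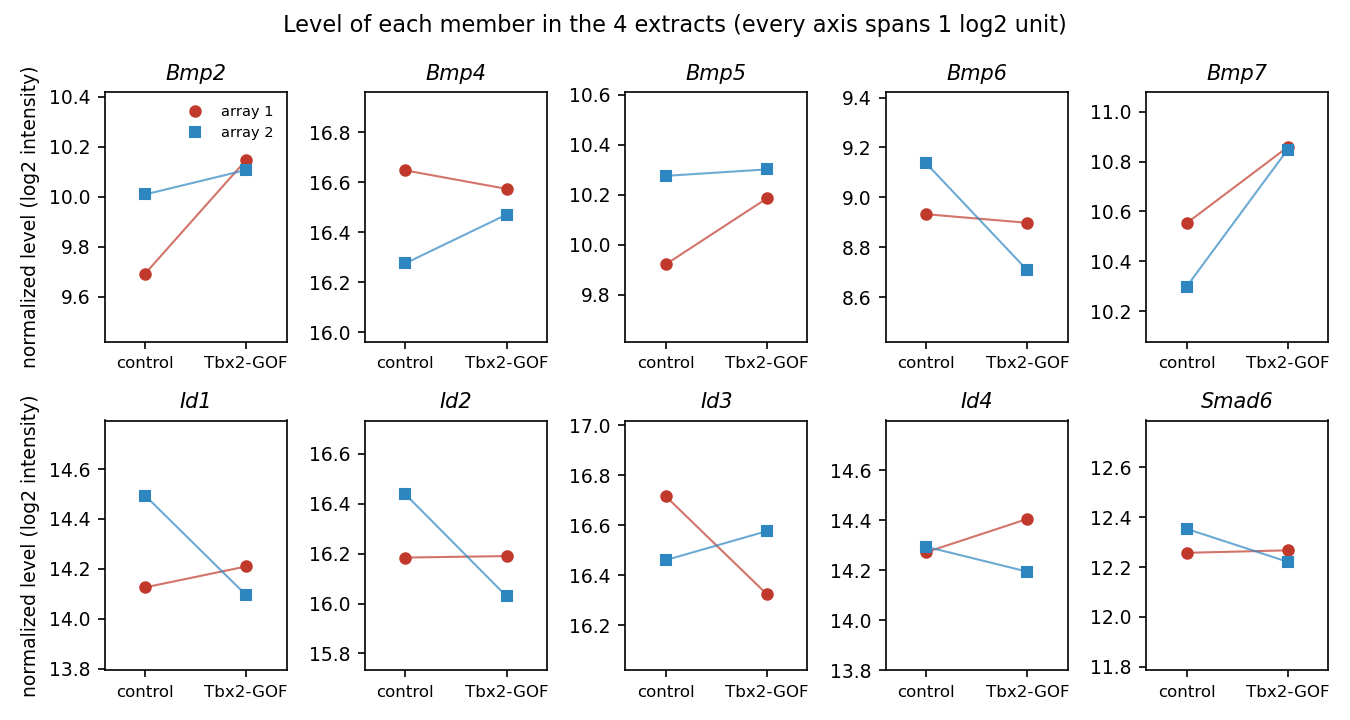
Normalized log2 intensity (y axis) of each of the 10 genes in control and Tbx2-GOF (x axis), with the 2 extracts of an array joined by a line (array 1 red circles, array 2 blue squares). Each y axis spans 1 log2 unit. Both lines of Bmp7 slope upward, to 10.86 and 10.85, and the 2 lines of each ID gene slope in opposite directions, that of Id2 on array 1 being almost flat.

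The ID genes and Smad6, read as response genes of the pathway, showed no shift shared by the arrays. All 5 differed in sign between arrays, as did 48.8% of all genes. Where the sign differs the levels of the genotypes must overlap, so their overlap in all 5 is no further result. The ID median was 0.045 on array 1 and -0.25 on array 2. The median gap between the 2 arrays was 0.45 for the ID genes, 0.31 for the 10 members and 0.20 for all genes.

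Id1, a widely used readout of BMP signalling (probe at chr2:152563083-152563142), had levels of 14.21 and 14.10 in Tbx2-GOF and 14.13 and 14.49 in control. Its log2 ratio was 0.085 on array 1 and -0.40 on array 2 (mean -0.16 ± 0.34, SD, n = 2; limma adjusted p = 0.963). The control extract of array 2 stood above the other 3 extracts, which lay within 0.12 of each other.

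Id2, an ID gene that also responds to several other signals (chr12:25778904-25778963), had levels of 16.19 and 16.03 in Tbx2-GOF and 16.18 and 16.44 in control. Its ratio was 0.0064 on array 1 and -0.41 on array 2 (mean -0.20 ± 0.29; limma adjusted p = 0.883). As for Id1, the control extract of array 2 was the highest of the 4.

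Id3, which with Id1 is required in developing vessels, took the opposite course. Its levels were 16.32 and 16.58 in Tbx2-GOF and 16.72 and 16.46 in control, and the control extract of array 1 was the highest. The ratio was -0.39 on array 1 and 0.12 on array 2 (mean -0.14 ± 0.36; limma adjusted p = 0.992). The gap of 0.51 between the arrays was larger than that of 88.6% of genes.

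Id4, a regulator of neural precursors (chr13:48358668-48358727), had levels of 14.41 and 14.19 in Tbx2-GOF and 14.27 and 14.29 in control. The control extracts differed by 0.022 and lay between the 2 Tbx2-GOF extracts. The mean ratio was 0.016 ± 0.17 (limma adjusted p = 0.9998), from 0.13 on array 1 and -0.10 on array 2. The mean had the opposite sign when taken from processed signals (-0.00027), from the series value table (-0.00027) or after median centring (-0.0085). Neural and Schwann markers, with summed intensities of 79910 and 82291 in Tbx2-GOF against 47813 and 31131 in control, were higher while Id4 was not called; no test of a link between them was made.

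Smad6 (chr9:63800980-63801039) had the smallest gap between arrays among the members, 0.14. Its levels were 12.27 and 12.22 in Tbx2-GOF and 12.26 and 12.35 in control, with ratios of 0.0092 and -0.13 (mean -0.062 ± 0.10; limma adjusted p = 0.9998). The 95% interval ran from 1.29-fold lower to 1.18-fold higher. For Id1 the interval ran from 1.44-fold lower to 1.16-fold higher, for Id2 from 1.46-fold lower to 1.11-fold higher, for Id3 from 1.42-fold lower to 1.18-fold higher and for Id4 from 1.23-fold lower to 1.26-fold higher. These bounds rest on 2 arrays, and a p that misses the threshold does not show equal levels.

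Because the dyes were swapped, a gene whose ratios differ in sign has the same dye higher on both arrays, as 48.8% of all genes do. Turned back to dyes, the normalized ratios put the red extract higher on both arrays for Id1, Id2, Id4 and Smad6. On array 1 the margin was only 0.0064 for Id2 and 0.0092 for Smad6. The green extract was higher on both arrays for Id3 and for the ligand Bmp4. In scanned signals red was brighter for Id3, at 98478.2 against 83812.5 on array 1 and 118395 against 79833.1 on array 2. Red was also brighter for Bmp4 on both arrays before normalization. This was not particular to these genes: over all non-control spots the median scanned signal was 452 in red and 348 in green on array 1. On array 2 it was 449 in red and 382 in green. The mean red-over-green log2 ratio after normalization was 0.24 for Id1, 0.21 for Id2, 0.12 for Id4 and 0.071 for Smad6. It was -0.25 for Id3 and -0.13 for Bmp4. A difference that follows the dye and a difference between the extracts of the 2 arrays cannot be told apart in this design.

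Endothelial cells hold high levels of Id1, Id3 and Smad6 as a rule, so their markers are set beside these genes. Of 8 endothelial markers 7 were higher in Tbx2-GOF on both arrays, 0 were lower on both and 0 were called, with a median of 0.27 (array 1, 0.37; array 2, 0.13) and a range from 0.016 for Tek to 0.37 for Emcn. Their summed intensity was 45931 and 46810 in Tbx2-GOF and 35524 and 40822 in control. All 8 were well above background in every channel. The part of endothelial cells in the ratios of Id1, Id3 and Smad6 was not tested. Ureteric mesenchyme markers, from the tissue that makes BMP4, had 0 of 7 called, 3 lower on both arrays and 0 higher on both. Their ratios ran from -0.45 for Tbx18 to 0.12 for Sox9, with summed intensities of 79160 and 82927 against 101920 and 78670. Most of each sum came from 1 bright marker, whose ratio differed in sign between the arrays. Tbx18 itself carries cre only in Tbx2-GOF. In its ratio, which the count and the sums include, a change of that allele and a change of the tissue cannot be told apart.

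The rest of the pathway was read from a list of 50 further genes by role, of which 45 were tested, 0 rose, 1 fell and 44 did not pass. That is 2.22% called, against 0.640% of all genes, and rests on 1 gene. At an unadjusted p under 0.05 by limma there were 8 of the 45, a larger share than the 1970 of 21097 genes (9.34%). The list was chosen with earlier results of these data known. The median over the 45 was 0.013. Bmp8b, Bmp10, Bmp15, Gdf2 and the decoy receptor gene Bambi had no probe well above background in 1 genotype on both arrays and were not tested.

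The gene that fell was Bmper, which encodes a secreted BMP-binding protein that can restrain or promote signalling. Its levels were 13.86 and 13.44 in Tbx2-GOF and 15.04 and 14.92 in control, so both Tbx2-GOF extracts lay below both control extracts. It fell 2.52-fold, a mean log2 ratio of -1.33 ± 0.21 (SD, n = 2; limma adjusted p = 0.0203), from -1.18 on array 1 and -1.48 on array 2. Its probe lies at chr9:23289301-23289360 (mm9, plus strand). The call was lost in 4 of the 12 other settings: the separate-channel model (limma adjusted p = 0.103), processed signals (0.126), the series value table (0.149) and median centring (0.437). Over all 12 the ratio stayed between -1.345 and -1.323 and the adjusted p between 0.00293 and 0.437. Settings that changed only the dim filter, the probe summary or the test left the ratio at -1.331. Among the 17 tested extracellular regulators the highest was Sostdc1, an antagonist of BMP and WNT, at 1.05 and 0.18 (mean 0.61, limma adjusted p = 0.327). The median of this group was 0.021.

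Of 5 tested further BMP and GDF ligands 0 were called and 3 were lower on both arrays, with a median of -0.19. Bmp3, an atypical ligand that opposes other BMPs, was the lowest, at -0.68 and -1.30 on the 2 arrays (mean -0.99 ± 0.44, limma adjusted p = 0.0663). Its levels of 10.58 and 10.74 in Tbx2-GOF lay below the 11.27 and 12.05 of control. Bmp3 passed the test in 4 of the 12 other settings: with scaling between arrays (adjusted p = 0.0165), without the dim filter (0.0301), with the mean of a gene's probes (0.0424) and with trended robust estimation (0.0430). Its lowest and highest adjusted p over all 12 were 0.0165 and 0.501. The highest of this group was Bmp8a at 0.013. Gdf5, a ligand of joint formation that was picked out after its values were seen, was at -0.92 and -0.57 on the 2 arrays (limma adjusted p = 0.0884) and passed with scaling (0.0481) and without the dim filter (0.0472). Its mean was -0.75 from its brightest probe and -0.53 over all its kept probes.

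Receptors had 0 of 8 called and a median of 0.028, from Bmpr1a, the type I receptor of BMP2 and BMP4, at -0.28 ± 0.015 (limma adjusted p = 0.592) to the coreceptor gene Eng at 0.26 ± 0.39 (limma adjusted p = 0.810). The arrays gave Bmpr1a ratios of -0.29 and -0.27, and its levels were separate, with 13.89 and 13.88 in Tbx2-GOF below 14.18 and 14.15 in control. Among 7 other SMAD and SMURF genes, the latter ubiquitin ligases for receptors and SMADs, 0 were called. Smad9, a receptor-activated SMAD, was lowest at -0.22 and Smad7, an inhibitory SMAD, highest at 0.21 (limma adjusted p = 0.803 and 0.871).

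Beyond the ID genes and Smad6, 5 further target genes of BMP signalling had 0 called, 3 higher on both arrays and a median of 0.24. Msx1, a homeobox gene, was highest, at 0.23 on array 1 and 0.82 on array 2 (mean 0.52 ± 0.42, limma adjusted p = 0.301). Its levels were 10.30 and 10.32 in Tbx2-GOF against 10.07 and 9.50 in control, and the genotypes were separate. Atoh8 was lowest at -0.24 ± 0.30 (limma adjusted p = 0.805). The median of these targets was above that of the ID genes, which was -0.15; the difference was not tested. Of the 3 E protein genes, the binding partners of ID proteins, 0 were called. Tcf12 was lower on both arrays at -0.37 and -0.39 (limma adjusted p = 0.327), and Tcf4 was highest at 0.15 (limma adjusted p = 0.953).

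**Figure D3:**
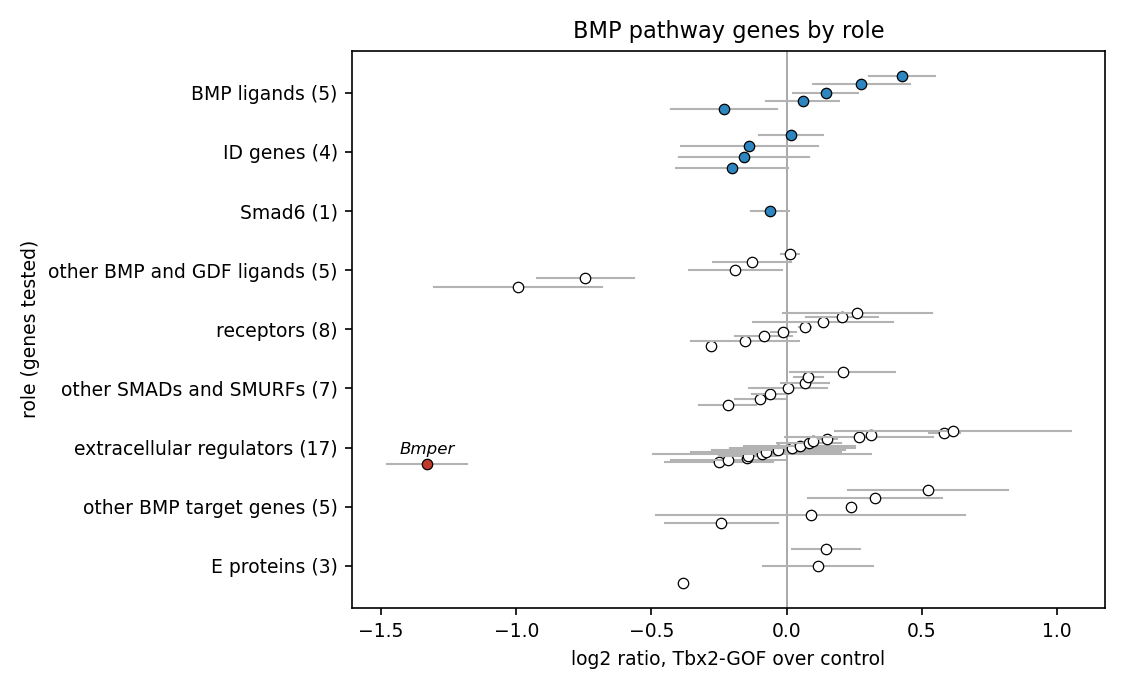
Mean log2 ratio of Tbx2-GOF over control (x axis) for every tested gene of the pathway, by role with the number tested in brackets (y axis); grey lines join the values of the 2 arrays. Blue points are the 10 ligand, ID and Smad6 genes, white points other pathway genes, and the red point is Bmper at -1.33, the 1 gene with a limma adjusted p under 0.05.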

How the data were processed

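Ureters were profiled on 2 two-colour Agilent arrays. The submitters' processing notes name Agilent Feature Extraction, version 10.7.3.1. Spot signals and local backgrounds are deposited intensity values as scanned; its processed signals, also deposited, are intensity values after its own background subtraction and dye normalization. Per the file headers, LogRatio is log10 of red over green. The deposited series value table holds a score whose scale, centring and direction are not given in the sources used here. Against the scanner values it was a signed linear fold ratio, positive for Tbx2-GOF over control: of probes above background in both channels, 99.2% and 98.7% lay within 0.01 of the turned log10 ratio, and both column medians were 1.

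Here limma 3.58.1 in R 4.3.3 applied normexp correction (offset 50) and loess within arrays (span 0.3), with control and outlier spots at weight 0. Ratios were turned by the labelled dyes. A probe was kept where 1 genotype was well above background on both arrays (26471 probes), and the brightest kept probe stood for a gene. Symbols followed RefSeq accessions (GRCm38.p6 names only; 26412 probes, 67.0%, matched). lmFit and eBayes (6.36 prior and 1 residual degrees of freedom) tested 21097 genes, two-sided, with Benjamini-Hochberg adjustment at 0.05. Coordinates are the scanner files' mm9, counted from 1; exon and UTR positions were not analysed here. The members and lists were chosen with earlier results of these data known. Named beyond the members were pathway genes past the test and the highest and lowest gene of each role and marker list, except 1 marker that is not reported here; Gdf5, Tbx2, Myocd, Des, Smtn and the untested pathway genes were named outside this rule. Both arrays lay on 1 slide, so slide was no batch to test. Alternatives to each step were run (closing section).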

Additional observations from a re-analysis of the deposited data

How the results depend on the processing

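Over 12 settings that used both arrays, 0 of 120 values of the 10 members passed the test, and 3 changed sign, all of Id4: -0.00027 with processed signals, -0.0085 with median centring and -0.00027 in the series value table. In these same settings no gene at all passed, so no member could. Processed signals and the series value table gave the same member ratios. The dim-filter, probe-mean, probe-level, trended and separate-channel settings kept each member's main ratio, so no sign could change there. Bmp7 ranged from 0.42 to 0.45 (adjusted p from 0.222 to 0.864), Bmp4 from 0.018 to 0.064 and Id1 from -0.19 to -0.14. With 1 array left there is no test, and the members' median was -0.038 without replicate 1 and 0.047 without replicate 2.

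Counts of called genes moved more. Over all genes 135 (76 higher, 59 lower) became 0 (0 and 0) from processed signals, from the series value table and after median centring, 4 (2 and 2) with the separate-channel fit, 313 (197 and 116) with scaling between arrays, 276 (167 and 109) without the dim filter and 211 (124 and 87) with the mean of a gene's probes. The count of further BMP pathway genes went from 1 to 0 in these 3 settings and with the separate-channel fit, to 2 with the mean of a gene's probes and with trend and robust estimation, and to 3 with scaling and without the dim filter; the cause was not tested. A 2-fold bound on both arrays left 57 of the 289 genes past 1.5-fold. The number of arrays limits precision; the dimmest member, Bmp6, had scanned signals from 393 to 609.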
